A study of Mus musculus with 5 samples.

Results

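The 40 genes described here encode factors that start, carry out and end translation. They were chosen by name, and their peaks were first taken as the rows of 3 deposited eCLIP peak lists in which the gene was named. These rows numbered 81 of 14092 in the PABPC1 list, 4 of 10916 in the CCT3 list and 8 of 18650 in the CCT3-2 list. Each list was labelled as from GC-2spd(ts), a mouse line labelled as spermatocyte cells, with no treatment or genotype given. By the labels all results are thus from a single line. The 5 samples were 1 immunoprecipitation of PABPC1, the cytoplasmic poly(A)-binding protein, 2 samples labelled CCT3 and CCT3-2, and 1 input each for PABPC1 and CCT3. CCT3 belongs to the cytosolic chaperonin that folds actin and tubulin. In eCLIP, RNA crosslinked to a protein is pulled down, trimmed and sequenced, and a peak is a place where it exceeds the input. The log2 fold over input and the −log10 p of each peak are the authors' values.

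Translation begins when eIF4F, made of the cap-binding protein eIF4E, the scaffold eIF4G and the helicase eIF4A, brings an mRNA to a small ribosomal subunit carrying eIF3, eIF1, eIF1A, eIF5 and eIF2 with the initiator tRNA. Elongation is driven by eEF1A, which delivers aminoacyl-tRNA, and by eEF2, which moves the ribosome along. At a stop codon eRF1 and eRF3 release the protein and ABCE1 splits the ribosome. PABPC1 binds poly(A) tails, contacts eIF4G and eRF3, and so takes part in several of these steps as a protein. The peaks described here concern the mRNAs that encode the factors, not contacts between the proteins.

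PABPC1 has 1 list and both CCT3 lists carry the same library name, so the proteins are compared without replicates. Whether CCT3 and CCT3-2 are separate immunoprecipitations is not given in these sources, and a peak found in both is not counted as replicated. The depth of the libraries is unknown, and the absence of a peak is no evidence that an RNA was free of the protein. Expression was not measured, its part in the counts was not tested, and fewer cells of a type and less RNA per cell cannot be told apart in these bulk samples. As a check of the label, 8 of 9 spermatocyte markers had a PABPC1 peak within the gene and on its strand, Spo11, whose strand was not known, being the exception. So did 5 of 5 spermatid, 3 of 4 Leydig (not Star), 3 of 4 Sertoli (not Amh, of unknown strand) and 5 of 5 fibroblast markers. By the same rule 27.5% of 18807 protein-coding genes had a PABPC1 peak. The highest log2 fold was 8.1 in spermatocyte markers (Sycp3), 8.43 in spermatid (Prm1) and 7.71 in Leydig markers (Insl3). It was 5.35 in Sertoli (Clu) and 6.34 in fibroblast markers (Sparc). The PABPC1 peaks in markers thus did not single out the labelled cell type. Within the marker genes CCT3 and CCT3-2 peaks lay in the Sertoli marker Sox9 alone, and by the gene named in the table each list also held 1 spermatocyte marker. The part of these cell types in the results was not tested, nor was whether all samples held the same cells.

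PABPC1 peaks were listed for 25 of the 40 genes (62.5%), CCT3 peaks for 3 (7.5%) and CCT3-2 peaks for 5 (12.5%). Among 21900 protein-coding genes the same rule found 22.5%, 9.15% and 12.0%. The share for PABPC1 was thus above that of all genes, while the shares for CCT3 and CCT3-2 were near it. At a log2 fold of at least 4 and a −log10 p of at least 5, PABPC1 peaks were listed for 15 genes (13.8% of all genes), CCT3 peaks for 0 (4.68%) and CCT3-2 peaks for 1, Eef1d (5.23%).

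The gene named in these tables is that of the nearest transcript start, so each peak was also placed by position. A peak was counted for a gene when its midpoint lay in the RefSeq span of the gene (GRCm38.p6, the build of mm10) and, where the list gives a strand, on the strand of the gene. Of the 81 PABPC1 peaks listed for these genes, 64 lay in the named gene and 17 did not. A further 22 peaks lay in the genes under 10 other names, which gave 86 peaks in all. Position again gave 25 genes (62.5%, against 27.5% of 18807 protein-coding genes with a known strand), of which 23 were in common. The genes lost were Eif3j1 and Eif4a3, and the genes gained were Eef2 and Eif4a2. At the stricter values position also left 15 genes for PABPC1 (16.7% of all), 0 for CCT3 (5.04%) and 1 for CCT3-2 (6.03%).

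The rows that moved were those of close neighbours. All 5 PABPC1 peaks listed for Eif3j1 lay in Ctdspl2, and all 3 listed for Eif4a3, a core protein of the exon junction complex, lay in Gaa on the other strand. Of the 8 rows listed for Eif2s2, 3 lay in Raly on the other strand, at log2 folds of 3.46, 4.75 and 6.75, and these included the highest. Of the rows listed for Eif4g3, 2 lay in Ece1, and of those listed for Eif4a1, 2 lay in Senp3. For Eif3m 2 of 3 rows lay on the other strand, 1 in Ccdc73 and 1 in Gm38521. In the opposite direction, 4 peaks in Eif4g1 were listed under Fam131a, 3 in Eif4a2 under Rfc4 and 3 in Eif3a under Nanos1. Unless stated, the values below are for peaks placed by position.

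**Figure D1:**
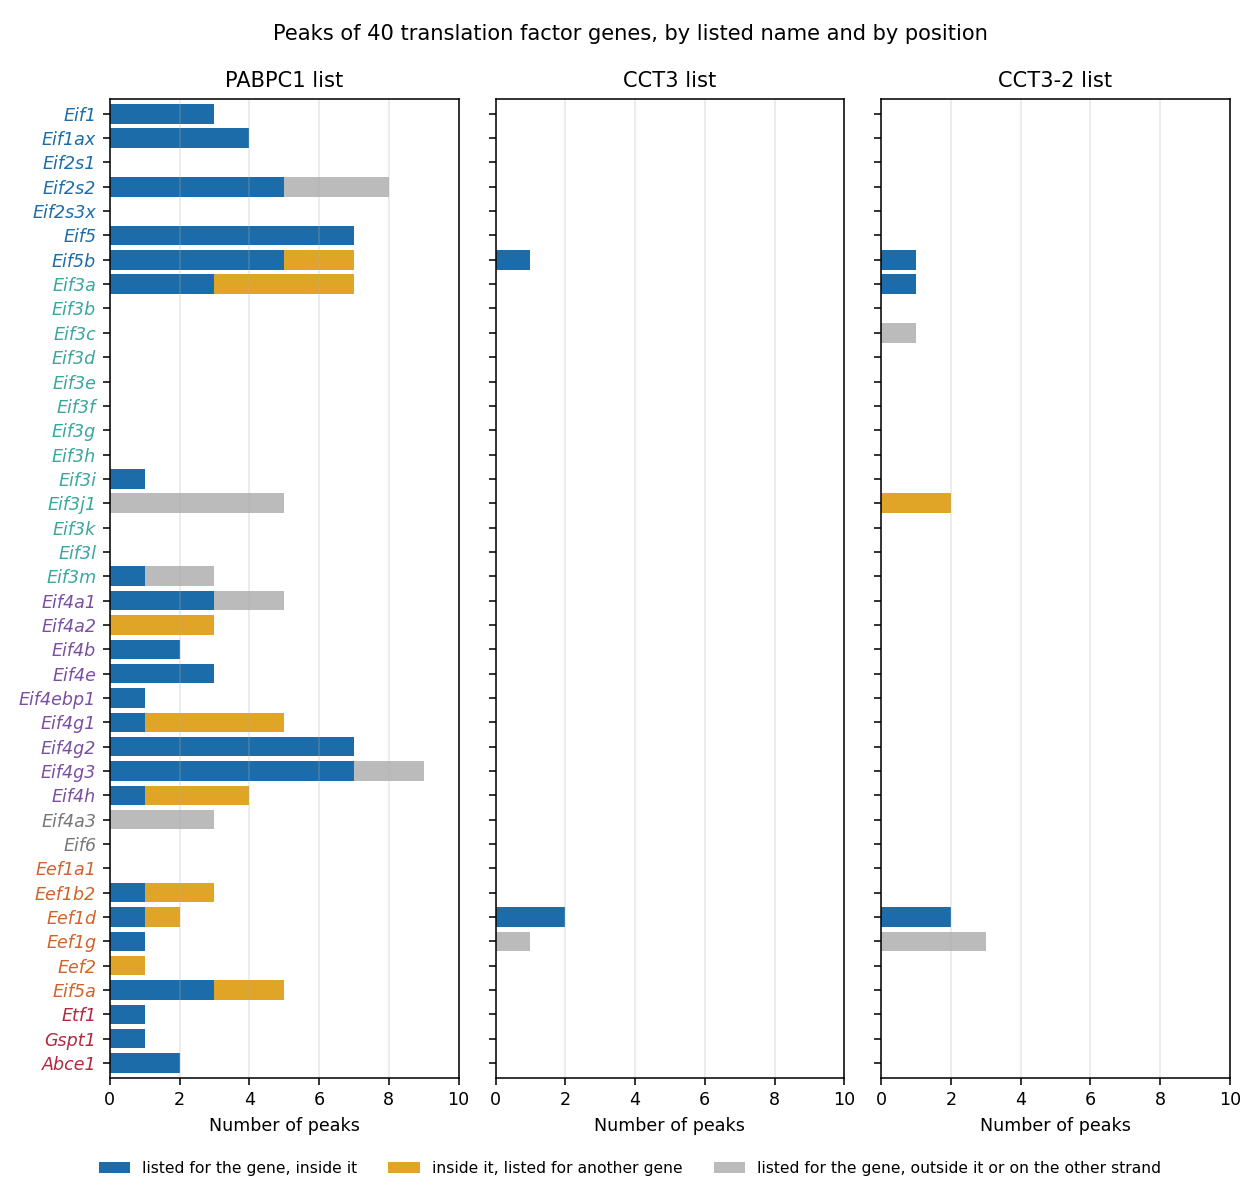
Number of peaks (horizontal axis) for each of the 40 genes (rows) in the PABPC1, CCT3 and CCT3-2 lists. Blue bars are peaks listed for the gene and inside it, yellow bars are inside it but listed under another gene, and grey bars are listed for the gene but lie outside it or on its other strand. Name colours mark the roles in the order start site, eIF3, cap binding, other functions, elongation and termination. The PABPC1 panel holds 64 blue, 22 yellow and 17 grey peaks, against 3, 0 and 1 in the CCT3 panel.

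By role, PABPC1 peaks were in every cap-binding and helicase gene, while the share of eIF3 genes with a peak was near the 27.5% of all protein-coding genes. All 9 cap-binding and helicase genes had a peak, with 35 peaks in total. Of the 7 genes for start site selection and the ternary complex 5 had one (26 peaks), and of the 13 eIF3 subunit genes 3 had one (9 peaks). The counts were 5 of 6 for elongation (12 peaks) and 3 of 3 for termination and recycling (4 peaks). Neither Eif4a3 nor Eif6, which act outside these steps, had a peak. These groups are small and their genes are not replicates, so no test was made.

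**Figure D2:**
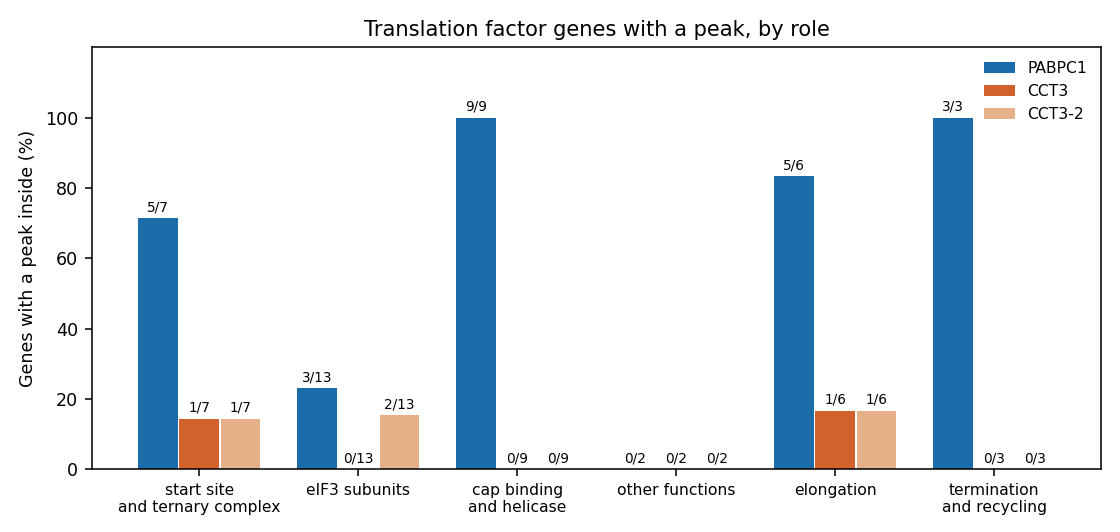
Percentage of genes in each role group (horizontal axis) with at least 1 peak inside the gene (vertical axis) in the PABPC1, CCT3 and CCT3-2 lists, with the counts above the bars. PABPC1 reaches 9 of 9 cap-binding and helicase genes and 3 of 13 eIF3 genes, while CCT3 reaches 1 gene for start site selection and 1 for elongation.

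The initiation genes as a whole carried 2.41 PABPC1 peaks per gene, with a median of 1.00 and a range of 0 to 7. The elongation genes carried 2.00 (median 1.5, range 0 to 5) and the termination genes 1.33 (median 1.00, highest 2). The ranges overlap. With the listed names the means were 2.34, 1.00 and 1.33, so the elongation mean rests on how peaks are assigned. The highest fold per gene ranged from 3.49 to 9.38 in initiation genes (median 4.81), from 3.06 to 5.04 in elongation genes (median 3.69) and from 3.36 to 4.78 in termination genes (median 4.15). Over all 25 genes the median highest fold was 4.53, and over 5175 protein-coding genes with a PABPC1 peak it was 4.67.

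The strongest peaks were in Eif4g3, which encodes an eIF4G scaffold (chromosome 4, 137991779 to 138207086, plus strand). Its 7 peaks all lay in the 3′ UTR, within a stretch of 538 bases, and the last was centred 144 bases from the RefSeq 3′ end. Of these, 4 followed each other with at most 1 base between them over 137 bases, from 138206422 to 138206558, with log2 folds of 9.31, 9.38, 8.83 and 7.77 in order. The next 3 peaks downstream had log2 folds of 4.75, 3.63 and 5.86. The highest fold ranked 25 among the 14092 PABPC1 peaks, so only 0.170% of the list was higher. The first 2 peaks of the run stood at a −log10 p of 400, the upper limit of the table, which 677 peaks reached. No CCT3 or CCT3-2 peak lay in Eif4g3.

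The other eIF4G genes had lower folds, and the peaks of Eif4g2 lay farther from the end of the gene span. In Eif4g1, the main scaffold gene (chromosome 16, 20672720 to 20692883, plus strand), 4 of 5 peaks lay within 500 bases of the 3′ end, at log2 folds of 4.81, 4.41, 4.75 and 4.17. The fifth had a log2 fold of 4.00 and lay 9367 bases from the 3′ end and 10796 from the start of the gene. All 5 were in the promoter class. Eif4g2 encodes a shorter relative that lacks the eIF4E-binding part. Its 7 peaks lay 3056 to 4529 bases from the 3′ end of the gene span, with log2 folds from 3.01 to 5.22. Eif4g3, Eif4g1 and Eif4g2 thus had 7, 5 and 7 peaks. Of these, 2 in Eif4g3, 4 in Eif4g1 and 0 in Eif4g2 were within 500 bases of the end of the gene span. All 7 in Eif4g3 lay 144 to 638 bases from that end, so the cut at 500 divides a single group. To the end of the listed transcript the distances were −1327 to 145 bases in Eif4g2 and −3472 to −2979 in Eif4g3, negative values being beyond it. The positions thus depend on the end used.

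The helicase pair resembled each other in position. Eif4a1 had 3 peaks, 303 to 433 bases from the 3′ end, with log2 folds of 4.18, 4.53 and 3.70. Eif4a2 had 3 peaks, 195 to 540 bases from the end, at 5.32, 4.42 and 4.42. The named rows gave 5 peaks for Eif4a1 and 0 for Eif4a2, and the position gave 3 for each. Eif4a1 and Eef1a1 have near-identical copies elsewhere in the genome, and the handling of reads that fit several copies is not stated, so their counts are uncertain.

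Of the remaining cap-binding genes, Eif4e, the cap-binding protein itself, had 3 peaks with log2 folds of 4.51, 3.48 and 4.72. The first of these was in the promoter class and the other 2 were in the 3′ UTR class. Eif4ebp1, whose protein holds eIF4E inactive, had 1 peak at 3.69, 267 bases from the 3′ end. The helicase cofactor gene Eif4b had a peak at 5.36, 44 bases from the end, and another at 3.93. Eif4h had 4 peaks, at 3.08 to 3.99, of which 2 were in the other-exon class and 1 lay 78 bases from the start of the gene.

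**Figure D3:**
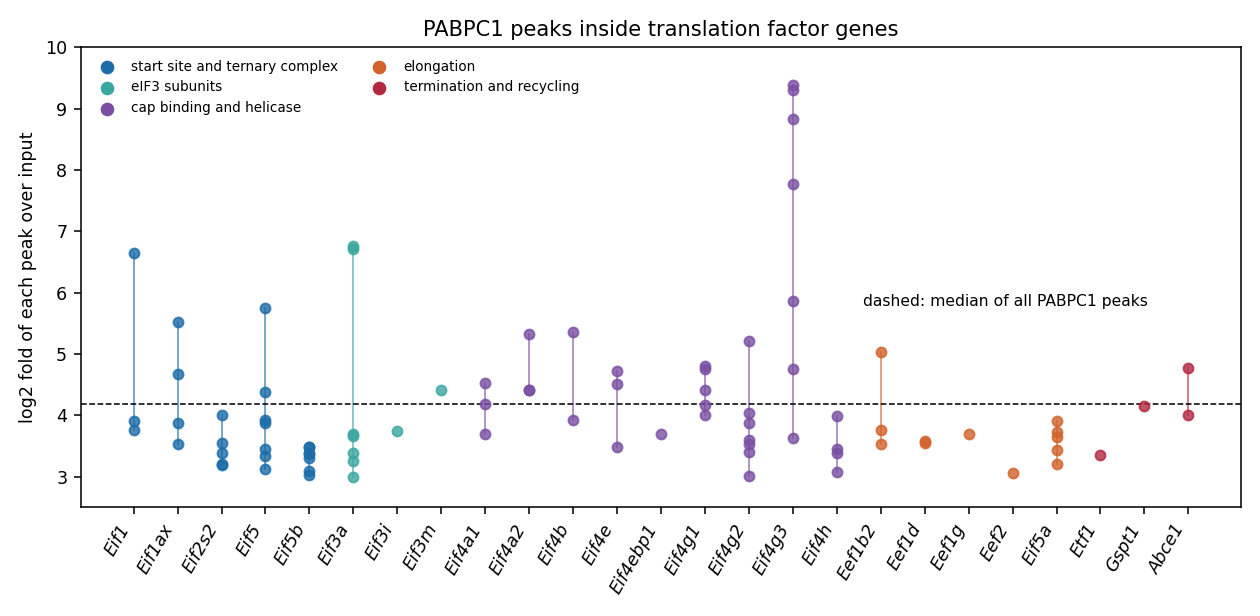
Log2 fold over input (vertical axis) of each of the 86 PABPC1 peaks inside a translation factor gene (horizontal axis, 25 genes coloured by role). Each point is a peak, the vertical line joins the lowest and the highest of a gene, and the dashed line is the median of all PABPC1 peaks (4.19). Eif4g3 reaches 9.38, Eif3a 6.76 and Eif1 6.65, while all elongation genes but Eef1b2 stay under the dashed line.

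Among the start site genes, Eif5 and Eif5b had most peaks. Eif5 encodes the GTPase activator of eIF2 (chromosome 12, 111538101 to 111546753, plus strand). Its 7 peaks all lay in the 3′ UTR class, in 2 groups. The farther 4 lay 1382 to 1901 bases from the 3′ end at log2 folds of 3.93, 3.88, 3.46 and 4.38, and the nearer 3 lay 170 to 356 bases from it at 3.12, 3.34 and 5.75.

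Eif5b, the GTPase that joins the ribosomal subunits, differed from Eif5 in where its peaks lay (chromosome 1, 37998010 to 38055579, plus strand). Of its 7 PABPC1 peaks 5 were in the other-exon class, in exons 3, 5, 6 and 10 of 24, with log2 folds of 3.49, 3.39, 3.03, 3.30 and 3.48. The other 2, listed under Rev1, were in the 3′ UTR class at 3.37 and 3.09. All 7 folds were below the median of all PABPC1 peaks, 4.19.

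Eif2s2, the beta subunit of eIF2, had 5 peaks. The 3 in other exons had log2 folds of 3.21, 3.38 and 3.19, and the 2 in the 3′ UTR had 3.55 and 4.01. The alpha and gamma subunit genes, Eif2s1 and Eif2s3x, had no peak in any list. Eif1, a guardian of start codon choice, had 3 peaks, and the one nearest the 3′ end, at 56 bases, had a log2 fold of 6.65 against 3.91 and 3.77 for the others. Eif1ax, which encodes eIF1A, had 4 peaks with log2 folds of 4.68, 3.54, 3.87 and 5.52.

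The first Eif1ax peak lay at the very start of the gene, which makes its sequence readable from the RefSeq promoter window. It began at 159372180 on the plus strand of chromosome X, and the RefSeq start is 159372178. It had a −log10 p of 45.2, the largest of the 4 peaks in Eif1ax. The following 30 bases lie at chrX:159372170-159372199 (GRCm38.p6, plus strand), with the 20 bases that belong to the peak in capitals. Of the 116 bases of the peak, 48 fall in the window, and 72.9% of these are G or C.
Eif1ax: aggagggcggGGAGAAGCCCCGCCCGCTGC
The shown peak sequence is rich in G and C and holds no run of A.

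Of the 13 eIF3 genes, 3 had a PABPC1 peak, near the share of all protein-coding genes (27.5%). eIF3 is the large assembly that holds the small ribosomal subunit ready for the mRNA. Peaks lay in Eif3a, Eif3i and Eif3m, and in none of Eif3b, Eif3c, Eif3d, Eif3e, Eif3f, Eif3g, Eif3h, Eif3j1, Eif3k and Eif3l. Eif3a, the largest subunit, had 7 (chromosome 19, 60761116 to 60790693, minus strand). The 3 peaks within 300 bases of its 3′ end had log2 folds of 6.76, 6.71 and 3.67, and the 4 in other exons had 3.26, 3.0, 3.39 and 3.69. Within this gene the 2 strongest peaks were therefore those nearest the end. The 4 peaks listed under Nanos1 or Mir3084-2 had higher folds than the 3 listed for Eif3a. Eif3i and Eif3m had 1 peak each, at 3.75 and 4.42, located 60 and 31 bases from the 3′ end.

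The elongation genes had low folds. Eef1a1, which encodes the tRNA carrier, had no peak in any list. Eef2, the translocase gene, had 1 PABPC1 peak (log2 fold 3.06, −log10 p 60.9), located 64 bases from its 3′ end and listed under Dapk3. A higher fold was listed for 97.9% of PABPC1 peaks. The genes of the exchange factor that recharges eEF1A followed. Eef1b2 had 3 peaks at 5.04, 3.54 and 3.77, Eef1d had 2 at 3.55 and 3.58, and Eef1g had 1 at 3.69. The highest of them, in Eef1b2, lay 323 bases from the start of the gene.

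Eif5a encodes a factor that helps ribosomes through difficult peptide bonds. It had 5 PABPC1 peaks (chromosome 11, 69916712 to 69921958, minus strand), with log2 folds of 3.73, 3.91, 3.43, 3.20 and 3.65 from the 3′ side to the 5′ side. Those at 3.73, 3.43 and 3.20 stood at the −log10 p limit of 400. With the 2 in Eif4g3 these were the only peaks of the 86 at that limit. So a p at the limit went with a log2 fold over 9 in Eif4g3 and under 4 in Eif5a.

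Termination and recycling genes each had 1 or 2 PABPC1 peaks, all in the 3′ UTR class. Etf1, which encodes eRF1, had 1 (log2 fold 3.36, −log10 p 4.76). Gspt1, which encodes eRF3, the release factor that contacts PABPC1 as a protein, had 1 (log2 fold 4.15, −log10 p 28.1). Abce1, the ribosome-splitting ATPase gene, had 2, at 4.78 and 4.00. None of the 3 genes had a CCT3 or CCT3-2 peak.

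Across the 86 peaks, the deposited annotation put 40 (46.5%, Wilson 95% interval 36.3 to 57.0%) in 3′ UTRs, 30 in the promoter class and 16 (18.6%, 11.8 to 28.1%) in other exons. With the listed names, 56.8% (45.9 to 67.0%) of 81 peaks were in 3′ UTRs and 16.0% (9.63 to 25.5%) in other exons. Of all 14092 PABPC1 peaks, taken as listed, 79.9% were in 3′ UTRs, 13.2% in the promoter class and 5.36% (5.0 to 5.75%) in other exons. Counted by gene, 6 of 25 (24.0%, 11.5 to 43.4%) had a peak in another exon, against 8.52% (7.79 to 9.31%) of 5175 protein-coding genes with a peak. The 6 were Eef1d, Eif1ax, Eif2s2, Eif3a, Eif4h and Eif5b, and Eif5b and Eif3a held 9 of the 16 peaks. The intervals cover counting error only, peaks of a gene are not independent, and PCR copies of a molecule are not independent reads.

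The promoter class did not mean the start of the gene. The class follows the start of the listed transcript, which can be that of a neighbour, as with Fam131a for 4 peaks in Eif4g1. Of the 30 peaks in the class, 12 lay within 500 bases of the RefSeq 3′ end, 3 within 500 bases of the RefSeq start and 15 near neither. The 12 were the peaks at the ends of Eif4a1, Eif4a2, Eif4g1, Eif5a and Eef2, and the 3 were in Eif1ax, Eif4h and Eef1b2. So 12 peaks near a 3′ end are not in the count of 3′ UTR peaks.

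Distance to the 3′ end does not use those labels. Of the 86 peaks 28 (32.6%, 23.6 to 43.0%) were within 500 bases of the end of the RefSeq span, against 48.3% (47.4 to 49.1%) of 13383 pairs of a PABPC1 peak and a protein-coding gene. Counted by gene, 15 of 25 (60%, 40.7 to 76.6%) had such a peak, against 65.9% (64.6 to 67.2%), and this interval holds the value for all genes. The median distance was 1279 bases for these genes and 544 for all. By role it was 1550 for initiation, 684 for elongation and 1265 for termination, over 70, 12 and 4 peaks. Distances run along the genome and include introns.

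**Figure D4:**
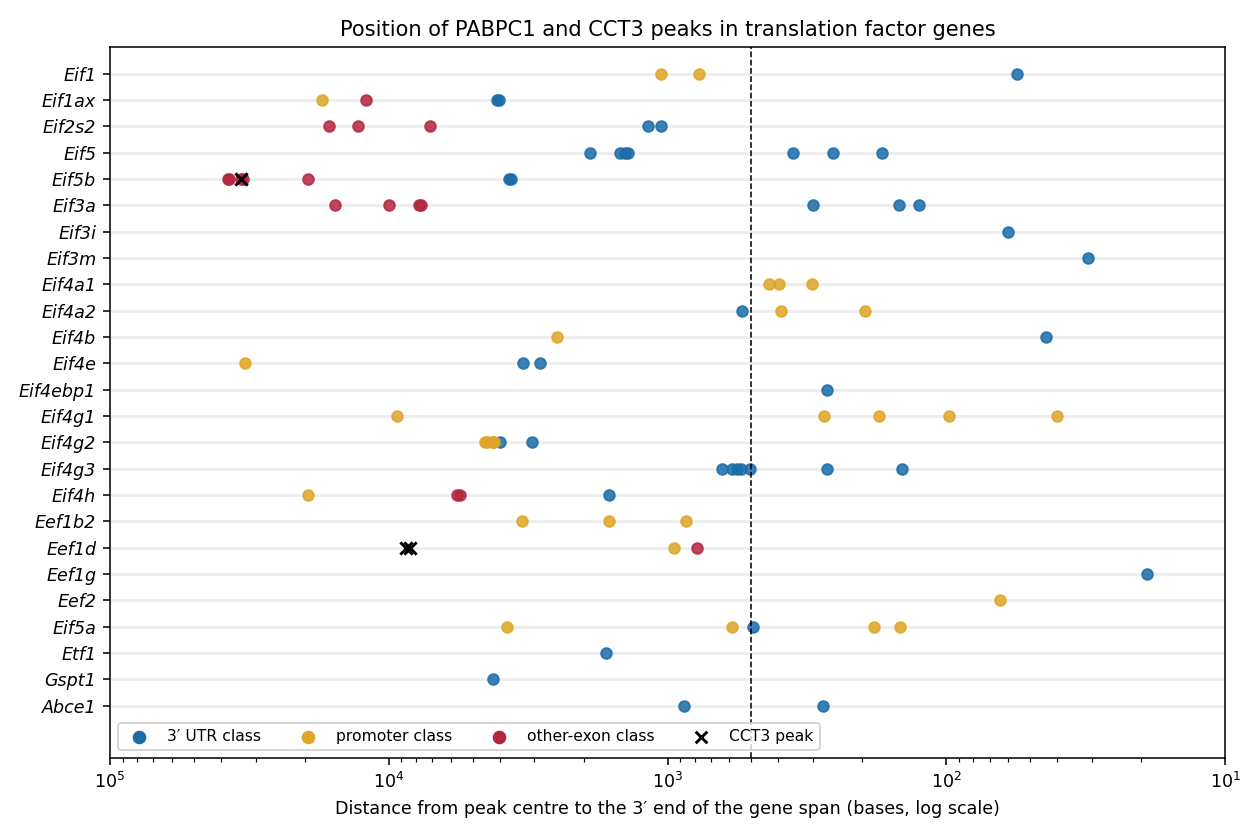
Distance from the centre of each peak to the 3′ end of its gene (RefSeq span; horizontal axis, bases, log scale, 3′ end to the right) for the 25 genes with a PABPC1 peak (rows, in role order). Circles are PABPC1 peaks coloured by the deposited class, crosses are CCT3 peaks, and the dashed line marks 500 bases. Peaks in other exons lie far to the left except in Eef1d, and those of Eif5b lie at 19409 to 37545 bases, and 28 of 86 PABPC1 peaks lie right of the line.

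The mRNAs of many elongation factors and of some initiation factors are known as TOP mRNAs, which begin with a C and a run of pyrimidines and are controlled together by mTOR signalling. Of 9 such genes in the set, 5 had a PABPC1 peak, with a median highest fold of 3.69, and of the other 31 genes 20 had one, with a median of 4.62. Among all protein-coding genes with a known strand 27.5% had a PABPC1 peak. The difference between the groups was not tested. RefSeq start sequences were found for 31 of the 40 genes and for 5 of the 9. Those of the 5 are shown because the start of the mRNA defines this class. Beside them are those of Eif4g3, Eif5 and Eif5b, with 7 PABPC1 peaks each. Eif3a and Eif4g2 also had 7 and are not shown. The Eif4g3 start used, 137993455, lies inside its gene span, which begins at 137991779. The 10 bases before the RefSeq start are in lower case and the first 20 transcribed bases in capitals (GRCm38.p6).
Eef1a1 (chr9:78481705-78481734, minus strand): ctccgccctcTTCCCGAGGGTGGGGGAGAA
Eef1b2 (chr1:63176821-63176850, plus strand): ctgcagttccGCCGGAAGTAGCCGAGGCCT
Eef2 (chr10:81176621-81176650, plus strand): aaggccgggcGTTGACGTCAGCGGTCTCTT
Eif3f (chr7:108934405-108934434, plus strand): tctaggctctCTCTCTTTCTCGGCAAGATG
Eif4b (chr15:102073763-102073792, plus strand): tcccgtcggaCGCCGCGCCACCCCCTCGCG
Eif4g3 (chr4:137993445-137993474, plus strand): tccgagcggcCGTCCTGCCGGACTGCTGGA
Eif5 (chr12:111538091-111538120, plus strand): cgacgtgcatGCGAGCCAATGACAAGAGAA
Eif5b (chr1:37998000-37998029, plus strand): ctgggttcccACCTGGCCGGCGGCTCTACT
Eif3f shows the pyrimidine run at its start. A C followed by at least 4 pyrimidines, beginning within 10 bases of the start, was in 3 of the 5 windows, in 6 of 33 windows of other members and in 30.7% of all 32851 RefSeq promoters (34.9% on the other strand). Genes with such a run were found with and without a PABPC1 peak: Abce1, Eif4b, Eif4e and Eif4g1 had one, and Eef1a1, Eif2s3x, Eif3b, Eif3f and Eif3l had none. RefSeq starts need not be the capped base, and no match says only that these letters are not in this window.

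CCT3 peaks lay in 2 of the 40 genes (5.0%, against 9.57% of 21900 protein-coding genes) and CCT3-2 peaks in 4 (10%, against 13.3% of 18807). The genes with a CCT3 peak were Eef1d and Eif5b, and CCT3-2 added Eif3a and Eif3j1. No CCT3 or CCT3-2 peak was in a 3′ UTR. The 3 CCT3 folds were below the median of that list (4.05), and of the 6 CCT3-2 folds 1, in Eef1d, was above the median of its list (3.83).

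Eef1d, the delta subunit of the eEF1 exchange factor (chromosome 15, 75894796 to 75909784, minus strand), had 2 CCT3 peaks in exon 2 of 9 of its annotated transcript. One lay at 75903168 to 75903241 (log2 fold 3.33) and the other at 75903376 to 75903504 (3.92). The CCT3-2 list held both places in its promoter class, at 3.27 and 4.41, with 69 and 115 bases in common. The PABPC1 peaks of this gene lay nearer its 3′ end, 782 and 944 bases from it, against 8408 and 8644 for CCT3. In Eef1d the PABPC1 and CCT3 peaks therefore lay in different places and did not overlap.

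Eif5b was the gene in which peaks of both proteins overlapped. Its single CCT3 peak, at 38021615 to 38021741 in exon 5 of 24 (log2 fold 3.31), shared 102 bases with the PABPC1 peak at 38021640 to 38021742, whose log2 fold was 3.03. The CCT3-2 peak there, at 38021696 to 38021752, was weaker (log2 fold 2.59, −log10 p 2.61), with both values below the lowest of the other lists, and shared 47 bases with the PABPC1 peak on the same strand. A higher fold was listed for 86.0% of CCT3, 99.2% of PABPC1 and 99.8% of CCT3-2 peaks. No other CCT3 or CCT3-2 peak in these genes overlapped a PABPC1 peak.

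The remaining CCT3 and CCT3-2 rows named Eef1g, Eif3c, Eif3a and Eif3j2. The CCT3 peak listed for Eef1g and all 3 CCT3-2 peaks listed for it lay in Tut1, a terminal uridylyltransferase gene, so no list of CCT3 had a peak within Eef1g. The CCT3-2 peak listed for Eif3c, at a −log10 p of 2.44, lay on the other strand of that gene. In Eif3a the CCT3-2 list held 1 peak, at a log2 fold of 2.93. Eif3j1 held 2 CCT3-2 peaks, at 3.07 and 3.68, in exons 4 and 5 of 8 of an annotated Eif3j1 transcript. The gene listed for both peaks was Eif3j2. Eif3j2 is a close copy of Eif3j1, so reads from the pair may not be told apart.

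Other genes of the translation pathway were counted in the same way. Of 45 regulators, paralogues and quality control genes, 4 of them with no strand known, PABPC1 peaks lay in 20, CCT3 peaks in 6 and CCT3-2 peaks in 8, where all protein-coding genes gave 27.5%, 9.57% and 13.3%. The difference from these shares was not tested. The highest PABPC1 folds were 7.91 in Eif1b, the paralogue of Eif1, 6.66 in Eef1e1, a scaffold of aminoacyl-tRNA synthetases, and 5.65 in Pelo, a ribosome rescue factor. In the CCT3 list Eif2ak2, the kinase PKR that phosphorylates eIF2, had 14 peaks up to a log2 fold of 5.24, and 19 in CCT3-2 up to 5.73. Rps6kb1, the S6 kinase gene downstream of mTOR, had 6 CCT3 peaks up to 5.88 and 10 CCT3-2 peaks up to 5.25. Gspt2, a paralogue of Gspt1, had 2 CCT3 peaks up to 4.41, and Rptor, a subunit of mTOR complex 1, had 4 up to 4.26. Eefsec, the selenocysteine elongation factor, had 1 at 4.09 and Eif4e2 had 1 at 3.46. Of these 6 genes, Rps6kb1 and Eif4e2 also had a PABPC1 peak, at 3.84 and 3.58.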

How the data were processed

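eCLIP peak lists labelled as from GC-2spd(ts) cells were analysed as deposited. Per the submitters' processing notes, reads were demultiplexed with bcl2fastq 2.20 and the build was mm10. For the aligner, peak caller and annotation tool, nothing is given in the sources used here. The log2 fold and the −log10 p of each peak are the authors' deposited values, named in the header of the CCT3 table and read from the value ranges in the other tables. The fold is taken as immunoprecipitation over input.

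Peaks were taken by listed gene and by RefSeq span (GRCm38.p6), on the strand of the gene except for CCT3, whose table has no strand. Gene strand came from the promoter table or from the deposited transcripts and was known for 37 of 40 genes. The deposited transcripts add a strand only for genes named in a peak list, so the 18807 may lean to genes with a peak. Eif3e, Eif3h and Eif6 had no peak on either strand. Sequences are from RefSeq. Shares have Wilson 95% intervals. The placement code was checked on simulated PABPC1 peaks planted inside member genes. It found 150 of 150 on the strand of the gene and 0 of 50 on the other strand. The same spans and strands were used to plant and to find them, so this checks the code only. No p-value was computed, as PABPC1 has 1 list and both CCT3 lists carry the same library name. Members and lists were chosen with earlier results of these data known. All members are accounted for, and values are given for those with a peak. Alternatives were a stricter threshold, merging, covered bases, distance from the start, the transcript end, roles by name, the CCT3-2 list and reciprocal overlap. Placement by position for the UTR share, roles and list overlap was added after seeing the data. Python 3.11.15, numpy 2.4.6, pandas 2.3.3, scipy 1.17.1 and matplotlib 3.10.9 were used.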

Additional observations from a re-analysis of the deposited data

How the results depend on the processing

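Of 28 alternative values for 10 results, 15 stayed within 1.5 times the main count or within the interval of the main share. At a log2 fold of at least 4 and a −log10 p of at least 5, 15 genes and 31 listed peaks remained in PABPC1 and 0 genes and 0 peaks in CCT3, since fewer peaks pass (13.8% and 4.68% of protein-coding genes). The 3′ UTR share of the listed peaks, 56.8% in all, was 71.0% at these values, and the mean peaks per gene were 0.93 for initiation, 0.17 for elongation and 0.67 for termination. More than 1000 bases from the listed start, the 3′ UTR share of the listed peaks was 78.0%, as the promoter class is left out. The 79.9% of the whole list includes the promoter class and all folds, so it is no counterpart of the 71.0% or the 78.0%. Shares of the whole list at these settings were not computed. The CCT3-2 list gave 5 genes, and 2 at a fold and −log10 p of at least 3. The median distance to the end of the listed transcript was 72 bases over the listed PABPC1 peaks, with 38 of 81 beyond that end, and to the RefSeq end it was 1279 bases over the peaks placed by position. Elongation genes had 0.60 peaks each with all Eif genes counted as initiation, since Eif5a leaves the group, and 2.00 by position. No paired analysis was possible because the peak lists carry no values per sample to pair. Peak lists hold only what passed the authors' caller, so a missing peak is no measure of binding.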
